A study of Danio rerio with 12 samples.

Results

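Selenoproteins carry selenocysteine, the selenium analogue of cysteine, which is inserted at a UGA codon that would otherwise end translation. Transcripts of 10 such genes had been selected by symbol: the glutathione peroxidases gpx1a, gpx1b, gpx4a and gpx4b, the methionine sulfoxide reductases msrb1a and msrb1b, and sepp1a, sepw1, sepn1 and sep15. Of these, 9 were found by their symbol among 32674 genes, and sep15 was not analysed here. The deiodinases, which are selenoproteins of thyroid hormone metabolism, were not part of the selection. The mean of each of the 9 over all libraries was above 0.5 FPKM (fragments scaled by the length of the gene and the size of the library), the minimum for testing.

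Retinal RNA came from adult zebrafish of the EK strain in the F3 generation. In the MeHg lineage the founding eggs (F1) had been held for 24 h in 0.03 µM methylmercury (MeHg), and in the control lineage in 0 µM MeHg with the ethanol vehicle alone; no MeHg was added for F2 and F3 fish of either lineage. Of 12 labelled samples, 6 per lineage and called biological replicates, 11 were used, namely MeHg libraries 2 to 7 and control libraries 3, 4, 5, 7 and 8. The labels name 1 lineage per concentration and do not say how the F2 and F3 fish were bred or whether retinas were pooled, so the exposure and other differences between the founders cannot be told apart. The question was whether the retinal transcriptome of unexposed descendants differed between the lineages.

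Selenium chemistry is the background for asking about these genes. Methylmercury binds thiols and, more tightly, the selenol group of selenocysteine, and selenoenzymes such as the glutathione peroxidases are known targets of it in directly exposed tissue. GPX1 and GPX4 reduce peroxides at the expense of glutathione, with GPX4 acting on lipid hydroperoxides in membranes, which in the photoreceptor are rich in polyunsaturated fatty acids. When selenium is short, transcripts of some selenoproteins are known to be degraded before those of others, so members of the family do not need to move together.

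The libraries held 4354466 to 6749645 assigned fragments in the MeHg lineage and 2838155 to 5663021 in the control lineage, as implied by the steps of the companion table. Retinal markers were present, at levels that varied between libraries. The sum of 9 cone genes was 16459 to 21547 FPKM in MeHg libraries and 7025 to 18343 FPKM in control libraries, and that of 9 amacrine cell genes 852 to 1243 FPKM in MeHg libraries and 541 to 1296 FPKM in control libraries. The sum of 9 Müller glia genes had a median of 1428 FPKM (1260 to 1472) in MeHg libraries and 1847 FPKM (1212 to 2334) in control libraries, and that of 10 bipolar cell genes a median of 904 FPKM (662 to 1074) in MeHg libraries and 1315 FPKM (734 to 2170) in control libraries. Control libraries 5 and 7 stood apart, with 1623 and 3151 FPKM in 16 oocyte genes, against 0.980 to 4.56 FPKM in MeHg libraries and 2.201 to 8.29 FPKM in the other control libraries. Markers of skin epithelium also varied, with 9 genes summing to 477 to 7141 FPKM in MeHg libraries and 2862 to 15069 FPKM in control libraries; within the MeHg lineage, libraries 6 and 7 were at 507 and 477 FPKM. In whole retinas, fewer cells of a type and less RNA per cell cannot be told apart.

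Of the 9 selenoprotein genes, sepn1 was higher in the MeHg lineage, msrb1b and sepw1 were lower, and the other 6 did not pass the test (limma on log2(FPKM + 1), Benjamini-Hochberg adjusted p under 0.05 over 20320 genes). Across all genes tested, 5.47% were called higher and 3.50% lower, 8.98% in all. The median difference over the 9 genes was -0.06 on the log2(FPKM + 1) scale, and 0.02 over all genes tested. Only for msrb1b, 1 of the 9, were the lineages free of overlap, where 7.52% of all genes tested were. Without control libraries 5 and 7, msrb1b alone was called, and then 3.64% of all genes tested were called higher and 4.65% lower, 8.28% in all. With MeHg libraries 6 and 7 and control library 8 left out, a setting chosen after seeing the data, none of the 9 was called by limma; 4 of them, sepn1, msrb1b, sepw1 and gpx1b, had an unadjusted limma p under 0.05 (0.0188, 0.0024, 0.0495 and 0.0164), each with the same sign as with all libraries. In that setting 18.2% of all genes tested had an unadjusted p under 0.05, and 2.32% were called higher and 1.24% lower, 3.56% in all. For gpx1b that setting took out the highest MeHg value and the lowest control value. A larger difference of gpx1b follows from it whatever the cause.

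**Figure D1:**
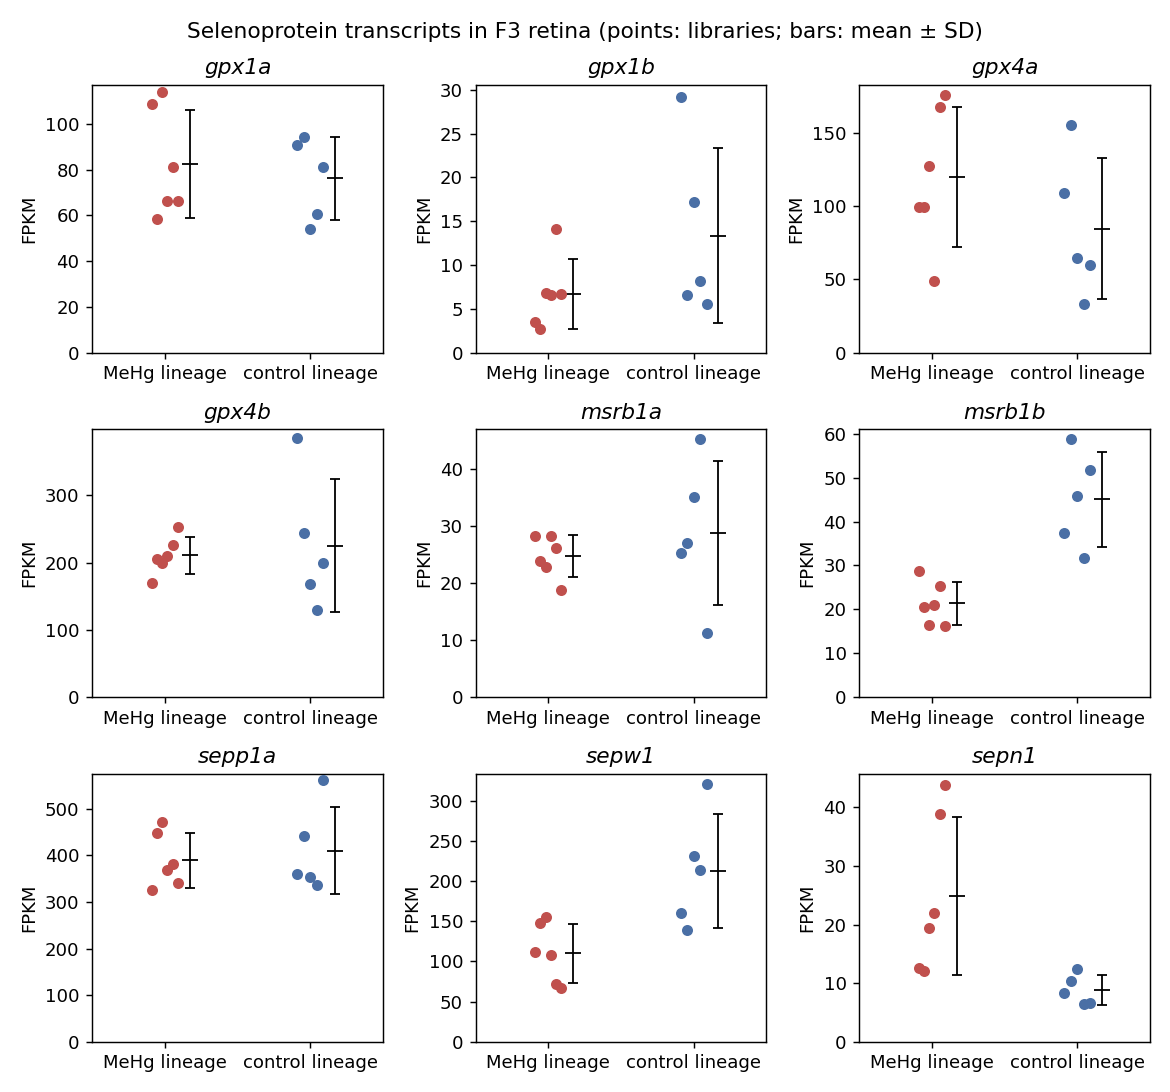
FPKM of the 9 selenoprotein genes in each library, 6 of the MeHg lineage (left, red) and 5 of the control lineage (right, blue); points are libraries and bars the mean ± SD. All MeHg values of msrb1b, up to 28.8 FPKM, lie below all control values, from 31.8 FPKM, while the ranges of the other 8 genes overlap.

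The glutathione peroxidases showed no called difference, and their intervals differed widely in width. For gpx1a (ENSDARG00000018146), the main cytosolic form that reduces hydrogen peroxide, MeHg libraries ran from 58.4 through a median of 73.9 to 114 FPKM, and control libraries 3, 4, 5, 7 and 8 had 90.9, 94.4, 53.9, 60.5 and 81.3 FPKM. The ranges overlapped in part, with MeHg libraries 2 and 4 above every control library and control library 5 below every MeHg library. Its log2 difference of 0.10 ± 0.22 (SE) had a 95% interval of -0.37 to 0.57, and its limma adjusted p was 0.805. The highest MeHg values of gpx1a, 109 and 114 FPKM in libraries 2 and 4, stood in the libraries with the most erythrocyte marker RNA, 1747 and 2768 FPKM over 5 genes of which hbae1 was listed at 0 throughout; the other MeHg libraries held 191 to 1059 FPKM of it and control libraries 375 to 1332 FPKM. The order did not hold throughout, since MeHg library 7 had 66.5 FPKM of gpx1a with 1059 FPKM of erythrocyte RNA, and control library 4, the highest control in gpx1a, had the lowest erythrocyte sum of its lineage, 375 FPKM. The part of blood RNA in the gpx1a values was not tested.

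The duplicate gpx1b (ENSDARG00000006207) was the scarcest of the 9 in the MeHg lineage. It ran from 2.70 through a median of 6.61 to 14.1 FPKM in MeHg libraries, and was at 29.2, 6.59, 17.1, 8.21 and 5.58 FPKM in control libraries 3, 4, 5, 7 and 8. Control libraries 3 and 5 were above every MeHg library and the other 3 fell within the MeHg range. The log2 difference was -0.79 ± 0.44 (SE), with a 95% interval of -1.74 to 0.16 and a limma adjusted p of 0.285. These values rested on 9 to 68 fragments per library, for which counting alone gives a coefficient of variation of 12.1% to 33.3%, against 60.0% among MeHg libraries and 74.8% among control libraries. The log2 difference was -1.32 ± 0.45 (SE, limma adjusted p = 0.164) when MeHg libraries 6 and 7 and control library 8 were left out. That choice took out the highest MeHg value (14.1 FPKM) and the lowest control value (5.58 FPKM) of gpx1b. It makes the difference larger whatever the cause.

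GPX4 protects membranes from lipid peroxidation, and both of its zebrafish genes were abundant. The gene gpx4b (ENSDARG00000076836) averaged 211 ± 28.0 FPKM in the MeHg lineage (SD, n = 6) and 225 ± 98.5 FPKM in the control lineage (SD, n = 5). Its log2 difference of -0.01 ± 0.24 (SE) had a 95% interval of -0.52 to 0.51, or 0.696-fold to 1.42-fold (limma adjusted p = 0.988). The MeHg values, from 170 to 253 FPKM, all lay inside the control range of 130 to 385 FPKM.

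For gpx4a (ENSDARG00000068478) the MeHg libraries ran from 49.0 through a median of 114 to 176 FPKM, and control libraries 3, 4, 5, 7 and 8 had 109, 155, 64.9, 33.4 and 60.1 FPKM. The 5 MeHg libraries other than library 5 were above the control median of 64.9 FPKM, yet 2 control libraries reached 109 FPKM or more. The log2 difference was 0.57 ± 0.40 (SE; 95% interval -0.29 to 1.44; limma adjusted p = 0.398). Without control libraries 5 and 7, which averaged 49.2 FPKM against 108 FPKM in the other 3, the log2 difference was 0.13. MeHg libraries 6 and 7 were the highest of their lineage in gpx4a, at 168 and 176 FPKM. Leaving them and control library 8 out gave a log2 difference of 0.18 (limma adjusted p = 0.874). Taking out the highest MeHg values makes the difference smaller whatever the cause.

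**Figure D2:**
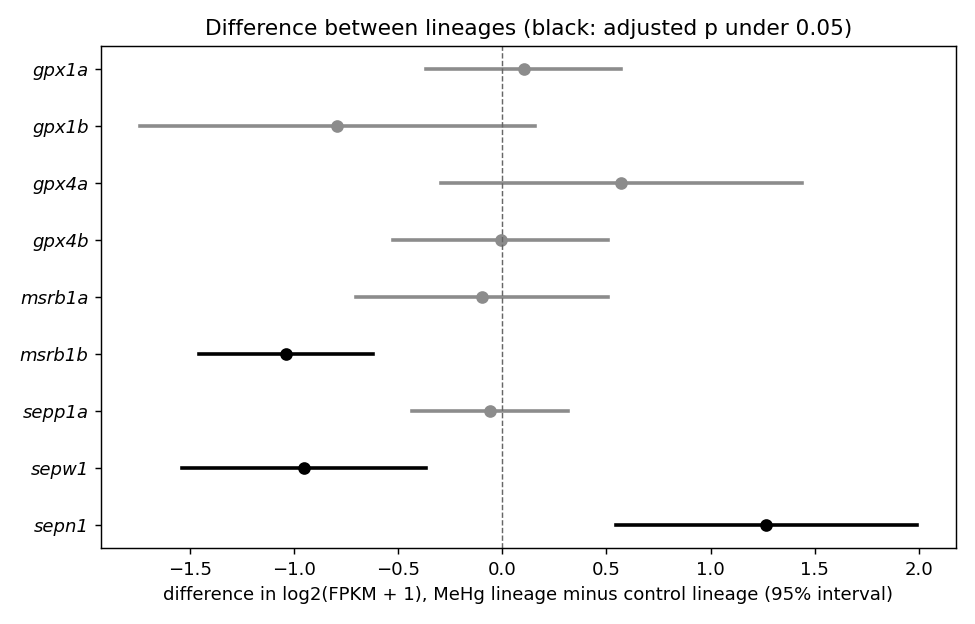
Difference in log2(FPKM + 1) between the lineages, MeHg minus control, for the 9 selenoprotein genes, with points for the limma estimate and lines for its 95% interval; genes in black passed the adjusted threshold. The interval is widest for gpx1b (-1.74 to 0.16), and 3 genes, msrb1b, sepw1 and sepn1, have intervals clear of 0 and adjusted p under 0.05.

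The methionine sulfoxide reductases of type B1 return the R form of oxidised methionine to methionine. The transcript of msrb1b (ENSDARG00000045160) was lower in the MeHg lineage. It ran from 16.2 through a median of 20.7 to 28.8 FPKM in MeHg libraries, and was at 37.4, 58.8, 45.8, 31.8 and 51.7 FPKM in control libraries 3, 4, 5, 7 and 8. All 6 MeHg libraries lay below the lowest control library, library 7. The means were 21.4 ± 4.94 FPKM (SD, n = 6) in the MeHg lineage and 45.1 ± 10.8 FPKM (SD, n = 5) in the control lineage, and the log2 difference was -1.04 ± 0.19 (SE; 95% interval -1.46 to -0.62; limma adjusted p = 0.0052). Ranked by p, it was number 591 of the 20320 genes. Each value rested on 61 to 181 fragments. The call held without any single library, with an adjusted p of at most 0.0169, and without control libraries 5 and 7 (log2 difference -1.17, adjusted p = 0.0061), which held the lowest control value.

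Its duplicate msrb1a (ENSDARG00000025436) did not pass. MeHg libraries ran from 18.7 through a median of 25.1 to 28.3 FPKM, and control libraries 3, 4, 5, 7 and 8 were at 25.3, 27.0, 35.1, 45.3 and 11.2 FPKM. All MeHg values lay within the control range, whose highest values were those of libraries 5 and 7. The log2 difference was -0.10 ± 0.28 (SE; 95% interval -0.70 to 0.51; limma adjusted p = 0.861), and without control libraries 5 and 7 it was 0.29. The value of control library 3 rested on 60 fragments, the fewest for this gene. Control library 8, the lowest in FPKM, held more of them, 76.

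Whether duplicates moved apart was tested on the log2 ratio of the pair within each library. The msrb1b to msrb1a ratio averaged -0.22 ± 0.19 in the MeHg lineage (SD, n = 6) and 0.73 ± 0.96 in the control lineage (SD, n = 5), a difference of -0.94. In FPKM msrb1b exceeded msrb1a in 1 of 6 MeHg libraries and in 4 of 5 control libraries, control library 7 being the exception. An exact two-sided permutation test over the 462 assignments of libraries gave p = 0.0281, or 0.0844 adjusted over the 3 pairs examined, above the threshold of 0.05. With single libraries left out, the adjusted p in the exact test ran from 0.0143 to 0.167 and passed only without control library 7 (difference -1.25); without control library 8 the difference was -0.60 (adjusted p = 0.121). It was -1.47 without control libraries 5 and 7 (adjusted p = 0.0357), and -0.64 without MeHg libraries 6 and 7 and control library 8 (adjusted p = 0.214).

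The companion table gave another picture of the same pair. Its values are not scaled by length, so their ratio does not compare the levels of both genes, but its difference between lineages can be read. There the log2 ratio of (value + 1) averaged -0.86 ± 0.22 in the MeHg lineage (SD, n = 6; -1.10 to -0.55) and 0.11 ± 0.49 in the control lineage (SD, n = 5; -0.49 to 0.67), without overlap. The difference was -0.97 (exact permutation p = 0.00216, adjusted over the 3 pairs 0.00649), in an alternative chosen after seeing the data. In fragments msrb1b exceeded msrb1a in 0 of 6 MeHg libraries and in 2 of 5 control libraries, 3 and 8. The call for this pair thus depended on the table. The measures parted for msrb1a: control library 3 had 25.3 FPKM from 60 fragments, and control library 8 had 11.2 FPKM from 76. Control library 8 thus had more fragments of msrb1a among fewer assigned fragments in all (2838155 against 3470515), yet the lower FPKM. FPKM is also scaled by length, which the companion values are not. Why the measures parted in these libraries was not tested.

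The peroxidase pairs did not pass either, so that by FPKM with all libraries none of the 3 pairs passed. The gpx4b to gpx4a ratio averaged 0.91 ± 0.61 in MeHg libraries (SD, n = 6) and 1.49 ± 0.52 in control libraries (SD, n = 5), with gpx4b the higher in all 11 (exact permutation p = 0.132, adjusted 0.139). The gpx1b to gpx1a ratio averaged -3.54 ± 0.77 in MeHg libraries (SD, n = 6) and -2.65 ± 1.02 in control libraries (SD, n = 5), with gpx1a the higher in all 11 (exact permutation p = 0.139, adjusted 0.139). None of the 99 values of the 9 genes was further than 0.027 from a whole number of fragments, so no sharing of single fragments between duplicates was visible in them.

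**Figure D3:**
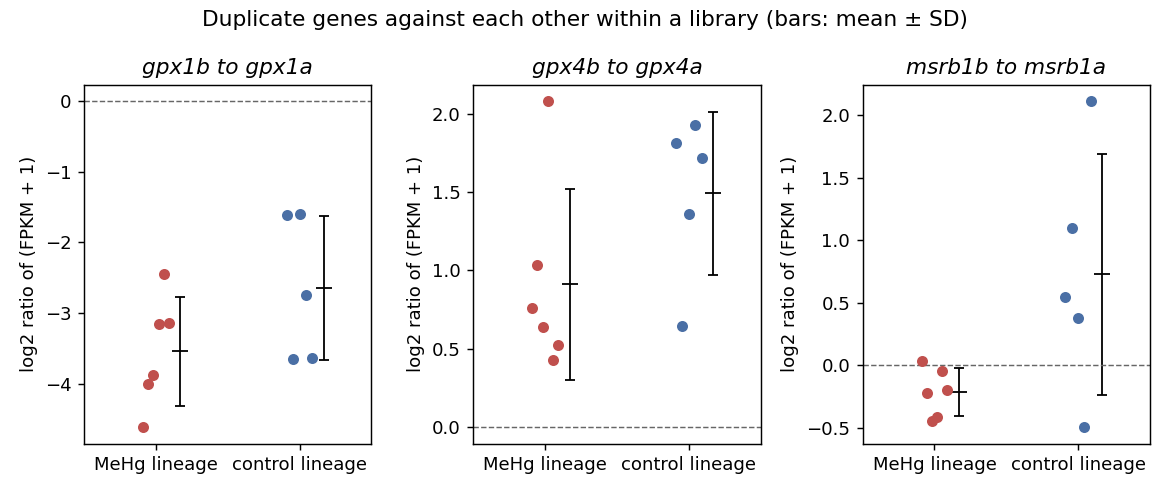
Log2 ratio of (FPKM + 1) between the members of each duplicate pair within a library, MeHg lineage on the left (red, 6 libraries) and control lineage on the right (blue, 5 libraries), with mean ± SD; the dashed line marks equal levels. The msrb1b to msrb1a ratio lies between -0.45 and 0.03 in MeHg libraries and between -0.50 and 2.11 in control libraries.

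Selenoprotein P, the secreted protein that carries selenium between tissues and holds many selenocysteines, was the most abundant of the 9 transcripts in the mean of each lineage. Its gene sepp1a (ENSDARG00000093549) ran from 325 through a median of 375 to 472 FPKM in MeHg libraries, and was at 359, 441, 353, 336 and 563 FPKM in control libraries 3, 4, 5, 7 and 8. The ranges overlapped broadly. The log2 difference was -0.06 ± 0.17 (SE; 95% interval -0.43 to 0.31; limma adjusted p = 0.859), the smallest SE of the 9 genes. It was also the best counted, with 2688 to 5823 fragments per library, and made up 34.5% to 44.1% of the summed FPKM of the 9 genes in MeHg libraries and 29.8% to 43.3% in control libraries.

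Selenoprotein W is a small protein with a thioredoxin-like fold, known from muscle and brain. The transcript of sepw1 (ENSDARG00000035136) was lower in the MeHg lineage: from 66.4 through a median of 110 to 155 FPKM in MeHg libraries, with 160, 139, 231, 214 and 321 FPKM in control libraries 3, 4, 5, 7 and 8. MeHg libraries 3 and 4, at 147 and 155 FPKM, lay between the 2 lowest control libraries, and the other 4 lay below every control library. The log2 difference was -0.95 ± 0.27 (SE; 95% interval -1.54 to -0.36; limma adjusted p = 0.0472). This call stood close to the threshold: it was lost without control library 5, 7 or 8 and without MeHg library 2, 5, 6 or 7, with an adjusted p of up to 0.111, and without control libraries 5 and 7 together the log2 difference was -0.87 (adjusted p = 0.163).

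Skin marker RNA moved with sepw1. The sum over the 9 skin genes was 3943, 7141, 5764, 3968, 507 and 477 FPKM in MeHg libraries 2 to 7, and 4344, 2862, 7938, 8731 and 15069 FPKM in control libraries 3, 4, 5, 7 and 8. MeHg libraries 6 and 7, the lowest in skin RNA, were the lowest in sepw1 at 72.4 and 66.4 FPKM, and control library 8, the highest in skin RNA, was the highest in sepw1. Markers of microglia and macrophages moved with it as well: 10 genes summed to 376, 528, 923, 253, 156 and 147 FPKM in MeHg libraries 2 to 7, and to 304, 207, 323, 310.5 and 468 FPKM in control libraries 3, 4, 5, 7 and 8, which within each lineage is the order of the sepw1 values. The medians of that sum were 314.4 FPKM in MeHg libraries and 310.5 FPKM in control libraries. None of those 10 genes was called between the lineages and none was at 0 throughout. The part of skin or macrophage RNA in the sepw1 values was not tested. Of the 9 skin genes cyt1 and cyt1l were near 0, at most 0.568 FPKM, while krt5, krt91 and icn made up 29.6%, 29.0% and 31.4% of the summed level. With MeHg libraries 6 and 7 and control library 8 left out, sepw1 averaged 131 ± 24.1 FPKM in the MeHg lineage (SD, n = 4) and 186 ± 43.6 FPKM in the control lineage (SD, n = 4). The log2 difference was then -0.49 ± 0.22 (SE, limma adjusted p = 0.275). Those libraries held the lowest MeHg values and the highest control value of sepw1 itself. Leaving them out makes its difference smaller whatever the cause, so this setting does not test the part of skin or macrophage RNA.

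**Figure D4:**
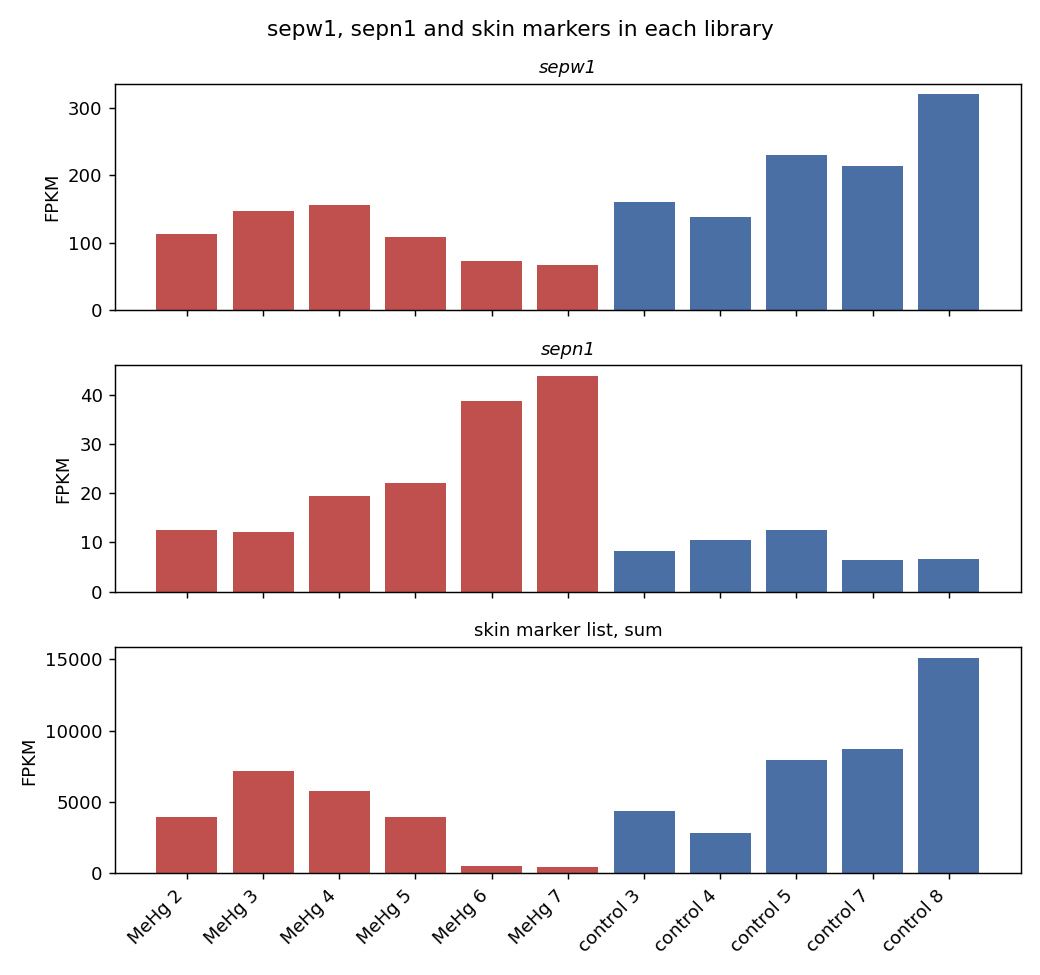
FPKM of sepw1 and sepn1 and the summed FPKM of 9 skin marker genes in each library, MeHg libraries (red) left of control libraries (blue). MeHg libraries 6 and 7 combine the lowest skin sums (507 and 477 FPKM) with the lowest sepw1 (72.4 and 66.4 FPKM) and the highest sepn1 (38.9 and 43.8 FPKM).

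Selenoprotein N is a membrane protein of the endoplasmic reticulum that acts in calcium handling, and its loss causes muscle disease in humans. The transcript of sepn1 (ENSDARG00000033616) was higher in the MeHg lineage. It ran from 12.1 through a median of 20.7 to 43.8 FPKM in MeHg libraries, and was at 8.24, 10.4, 12.5, 6.38 and 6.61 FPKM in control libraries 3, 4, 5, 7 and 8. In FPKM, only MeHg library 3 fell below the highest control library, library 5, and MeHg library 2 exceeded that library by less than 0.1 FPKM. Those similar values rested on 56 fragments in control library 5, of 3255394 assigned, and on 209 in MeHg library 2, of 6749645 assigned. The means were 24.8 ± 13.5 FPKM (SD, n = 6) in the MeHg lineage and 8.83 ± 2.61 FPKM (SD, n = 5) in the control lineage, and on the log2(FPKM + 1) scale they differed by 1.27 ± 0.33 (SE; 95% interval 0.54 to 1.99; limma adjusted p = 0.0328). The MeHg libraries spread 3.63-fold, from 12.1 FPKM in library 3 to 43.8 FPKM in library 7. By the companion table, with all libraries, the log2 difference of sepn1 was 1.59 (limma adjusted p = 0.00714).

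The call of sepn1 also rested on single libraries. It was lost without control library 3, 7 or 8 and without MeHg library 4, 5, 6 or 7, with an adjusted p of up to 0.0711, and without control libraries 5 and 7 together (log2 difference 1.31, adjusted p = 0.0738). MeHg libraries 6 and 7, the highest in sepn1, were the lowest in skin RNA. They were also the lowest in 11 muscle marker genes, at 39.0 and 17.6 FPKM against 87.3 to 490 FPKM in the other MeHg libraries and 71.9 to 548 FPKM in control libraries. In that list pvalb1 was listed at 0 in all MeHg libraries. Both libraries were the lowest in microglia and macrophage markers as well (156 and 147 FPKM). Within their lineage they were the highest in ganglion (404 and 443 FPKM), cone and bipolar cell sums. Control libraries, all low in sepn1, reached 449 FPKM in the ganglion sum. The part of any cell type in the sepn1 values was not tested. With MeHg libraries 6 and 7 and control library 8 left out, sepn1 averaged 16.5 ± 4.98 FPKM in the MeHg lineage (SD, n = 4) and 9.38 ± 2.65 FPKM in the control lineage (SD, n = 4). On the log2 scale these were 0.75 ± 0.26 apart (SE, limma adjusted p = 0.175). That choice took out the highest MeHg values of sepn1 and a control value below the control mean (6.61 FPKM). A smaller difference follows from it whatever the cause, so this setting does not test the part of skin or muscle RNA.

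By level per length in FPKM, the order in the MeHg lineage was sepp1a, gpx4b, gpx4a, sepw1, gpx1a, sepn1, msrb1a, msrb1b and gpx1b. The order in the control lineage was sepp1a, gpx4b, sepw1, gpx4a, gpx1a, msrb1b, msrb1a, gpx1b and sepn1. In the MeHg lineage neighbours were separated without overlap at 3 places, between sepp1a and gpx4b, between gpx1a and sepn1, and between msrb1b and gpx1b; in the control lineage the ranges of all neighbours overlapped. Levels reached from the 59.7th percentile of all genes tested for gpx1b to the 98.9th for sepp1a. The summed level of the 9 genes was 881 to 1134 FPKM in MeHg libraries and 866 to 1300 FPKM in control libraries.

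The spread among replicates differed between members. In the MeHg lineage the coefficient of variation was lowest for gpx4b (13.3%), msrb1a (14.8%) and sepp1a (15.1%) and highest for gpx1b (60.0%) and sepn1 (54.4%), where the median over all genes with a mean of 5 FPKM or more was 19.9%. In the control lineage it was lowest for sepp1a (22.9%), gpx1a (23.8%) and msrb1b (24.0%) and highest for gpx1b (74.8%) and gpx4a (56.8%), with a median of 28.9% over the same genes. For gpx4b and msrb1a the control lineage was the more variable, at 43.7% and 43.8%. The spread of msrb1a is one of FPKM, which did not follow its fragments in all control libraries. Control library 3 had 25.3 FPKM from 60 fragments and control library 8 had 11.2 FPKM from 76. The difference in spread was not tested.

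The genes whose pattern was most like a called member were sought by the root mean square difference in centred log2(FPKM + 1) over the 11 libraries, which is a description. For msrb1b they were rnf145a, a RING finger gene, stk35l, a kinase gene, and sgtb, a co-chaperone gene, at 0.15, 0.15 and 0.17, where msrb1b itself varied by 0.60. For sepn1 they were arhgap6, lemd3 and mcf2la at 0.22, 0.30 and 0.31, against its own 0.84; arhgap6 and mcf2la encode regulators of small GTPases and lemd3 a protein of the inner nuclear membrane. For sepw1 they were angptl4, an inhibitor of lipoprotein lipase, ef1, and mgst1.2, a microsomal glutathione transferase, at 0.18, 0.20 and 0.22, against its own 0.65. All 3 genes nearest to sepw1 missed the threshold for a difference between the lineages (limma adjusted p = 0.0662, 0.202 and 0.0801). Of those nearest to sepn1, arhgap6 missed it too (limma adjusted p = 0.0731), while lemd3 and mcf2la passed (0.0113 and 0.0011). Those nearest to msrb1b passed (limma adjusted p = 0.0202, 0.0102 and 0.0238).

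Among 14 further selenoprotein genes tested, 0 were called higher and 1 lower, with a median log2 difference of -0.08. For this list and those that follow, the shares over all genes tested were 5.47% called higher, 3.50% called lower and 7.52% without overlap between the lineages. The gene called was selo, which encodes a mitochondrial pseudokinase that transfers AMP to other proteins. It ran from 12.9 through a median of 13.5 to 14.6 FPKM in MeHg libraries, and was at 26.1, 28.7, 20.7, 18.3 and 28.5 FPKM in control libraries 3, 4, 5, 7 and 8. All MeHg libraries lay below all control libraries within a span of less than 2 FPKM (log2 difference -0.78 ± 0.14, SE; limma adjusted p = 0.0035). The call held without any single library and without control libraries 5 and 7 (adjusted p = 0.000465), but not without MeHg libraries 6 and 7 and control library 8 (log2 difference -0.72, adjusted p = 0.0580). Other members included the thioredoxin reductase txnrd2 and the thioredoxin-like selenoproteins selt1a, selt2 and sepw2a, none of which passed.

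The machinery that makes selenoproteins, listed together with lrp8, a receptor for selenoprotein P, showed no called gene. Of 7 genes tested, among them the SECIS-binding protein secisbp2, the elongation factor eefsec and the selenocysteine lyase scly, 0 were called higher and 0 lower by limma, also at an unadjusted p under 0.05; the median log2 difference was -0.09. The smallest p belonged to sepsecs, the synthase that forms selenocysteine on its tRNA, with 4.40 ± 1.06 FPKM in the MeHg lineage (SD, n = 6) and 6.98 ± 3.98 FPKM in the control lineage (SD, n = 5; limma adjusted p = 0.344). It was followed by trnau1apb, a protein bound to that tRNA, with 67.8 ± 11.8 FPKM in the MeHg lineage (SD, n = 6) and 79.3 ± 10.5 FPKM in the control lineage (SD, n = 5; limma adjusted p = 0.356), and by sephs1 (log2 difference 0.24, limma adjusted p = 0.544).

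A further 4 genes tested were of the glutathione peroxidase family and of methionine sulfoxide reductases, with enzymes that use cysteine and not selenocysteine. Of these, 0 were called higher and 1 lower, where 8.98% of all genes tested were called. Their median log2 difference was -0.62. The lower gene was msra, which reduces the S form of methionine sulfoxide, the counterpart of the form reduced by msrb1a and msrb1b. Its level ran from 12.7 through a median of 15.1 to 19.9 FPKM in MeHg libraries, and was 45.7, 25.1, 39.5 and 63.2 FPKM in control libraries 3, 4, 7 and 8, with control library 5 between libraries 3 and 8. All MeHg libraries lay below all control libraries, and the log2 difference was -1.43 ± 0.21 (SE; limma adjusted p = 0.0012). The call held without any single library (adjusted p of at most 0.0050) and without control libraries 5 and 7 (adjusted p = 0.0074). The gene msrb3, the form of the endoplasmic reticulum and mitochondria, was at 11.3 ± 3.27 FPKM in the MeHg lineage (SD, n = 6) and 18.6 ± 5.34 FPKM in the control lineage (SD, n = 5) and missed the threshold (limma adjusted p = 0.0714).

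Genes that supply glutathione and its reducing power numbered 12, of which 0 were called higher and 1 lower, with a median log2 difference of -0.19. The lower gene was pgd, an NADPH-producing enzyme of the pentose phosphate pathway. It ran from 27.8 through a median of 38.3 to 50.9 FPKM in MeHg libraries, and was at 236, 211, 112, 82.8 and 110 FPKM in control libraries 3, 4, 5, 7 and 8. No values overlapped (log2 difference -1.86 ± 0.27, SE; limma adjusted p = 0.0011), and the call held without any single library and without control libraries 5 and 7 (adjusted p = 0.000714). Control libraries 3 and 4, the highest in pgd, were also the highest in the sum of bipolar cell genes (2170 and 1963 FPKM, against 734 to 1315 FPKM in the other control libraries) and of 6 horizontal cell genes (221 and 195 FPKM, against 64.4 to 138 FPKM in the other control libraries), and control library 7 was the lowest in all 3; the horizontal sum was 85.9 to 132 FPKM in MeHg libraries. Control libraries 3 and 4 were likewise the highest controls in the cone sum (17667 and 18343 FPKM) and the amacrine sum (1296 and 1291 FPKM). Control library 7 was the lowest control in both (7025 and 541 FPKM). MeHg libraries, all low in pgd, had 16459 to 21547 FPKM in the cone sum and 852 to 1243 FPKM in the amacrine sum. The part of any of these cell types in the pgd values was not tested. The values of idh1, of the same list, did not overlap either, at 15.6 to 20.3 FPKM in MeHg libraries and 22.3 to 50.8 FPKM in control libraries. It narrowly missed the threshold (log2 difference -0.65, limma adjusted p = 0.0544). Glutathione synthesis and reduction, represented by gclc, gclm, gss and gsr, gave no call.

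Of 13 other genes of peroxide and superoxide removal, 1 was called higher and 0 lower, with a median log2 difference of -0.10. The higher gene was prdx6, a peroxiredoxin that uses glutathione and acts on phospholipid hydroperoxides, as GPX4 does. It ran from 146 through a median of 165 to 196 FPKM in MeHg libraries, and was at 141, 105, 93.7, 104 and 107 FPKM in control libraries 3, 4, 5, 7 and 8. All MeHg values lay above all control values, and the log2 difference was 0.60 ± 0.13 (SE; limma adjusted p = 0.0145). The adjusted p was 0.0516 without control library 5 and 0.0570 without control libraries 5 and 7, and 0.135 without MeHg libraries 6 and 7 and control library 8. In the fit without control libraries 5 and 7 sod2, the mitochondrial superoxide dismutase, was called lower (adjusted p = 0.0465).

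**Figure D5:**
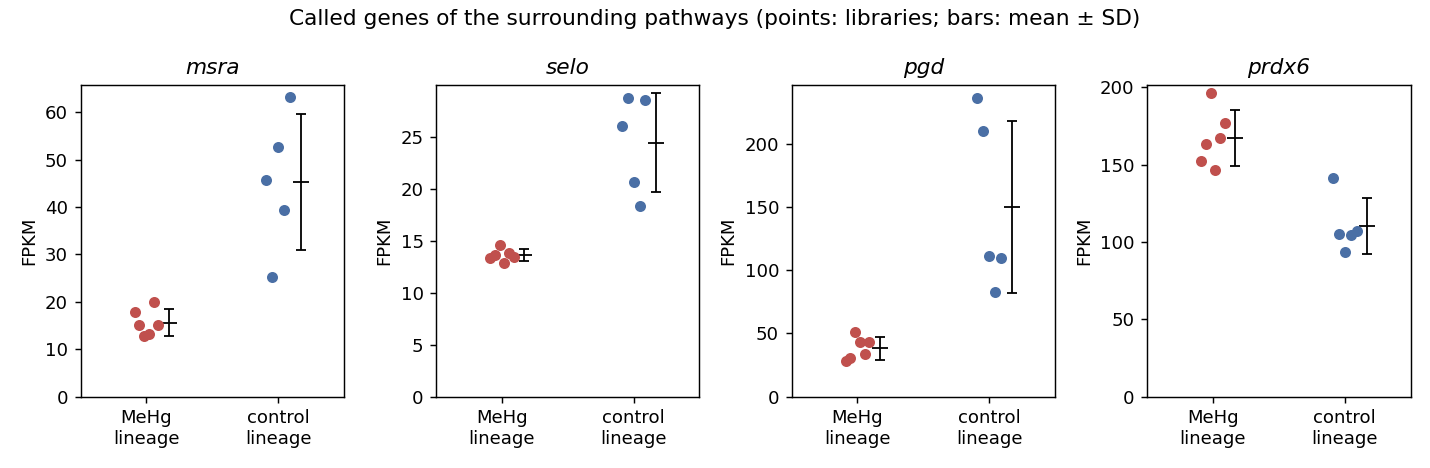
FPKM of msra, selo, pgd and prdx6, the 4 genes called in the lists around the selenoproteins, in 6 MeHg libraries (left, red) and 5 control libraries (right, blue), with mean ± SD. The MeHg points of msra, selo and pgd lie below every control point, and those of prdx6, from 146 FPKM, above every control point, up to 141 FPKM.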

How the data were processed

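Paired reads of 100 bases were processed with CASAVA 1.8.2, cutadapt, FastQC, TopHat and Cuffnorm on build Zv9, per the submitters' processing notes; for annotation, strand setting and other versions nothing is given in the sources used here. The deposited tables hold FPKM and a companion signal, fragment numbers divided by a size factor per library, of which 98.3% to 98.6% per library were whole multiples of that library's step (tolerance 0.01). The unit is not a count, so the count test was not run. A single unnamed column of values per file (1) was not used, and control replicate 1 was not analysed here.

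Genes averaging 0.5 FPKM or more were compared with limma 3.58.1 in R 4.3.3 on log2(FPKM + 1), which understates changes of low genes (eBayes with trend, Benjamini-Hochberg over 20320 genes, threshold 0.05). Differences are MeHg minus control. The fit was tested on simulated data. Duplicate pairs were compared by exact permutation. The 9 genes were named by symbol; of other lists, every called gene, or the 3 with the smallest p where none was called, and others as list examples. Of the lists' genes, 3 were matched through older symbols or reference names in the other selenoprotein list and 1 in the glutathione list. In the erythrocyte list hbaa1 was matched through an older symbol to hbae1, and hbaa2, hbba1 and hbba2 were not matched. Members and lists were chosen with earlier results of these data known. Libraries are the samples labelled biological replicates; depth limits low genes.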

Additional observations from a re-analysis of the deposited data

Results flagged for a closer look

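In 24 sets of values, 1 per gene and lineage or per duplicate pair and lineage, 2 had a library far from the others of its lineage, where chance gives about 1 in 20. For gpx1b, MeHg library 6 was the highest at 14.1 FPKM, against 2.70 to 6.82 FPKM in the other MeHg libraries. For the log2 ratio of gpx4b to gpx4a, MeHg library 5 was the highest at 2.08, against 0.43 to 1.03 in the other MeHg libraries; that library had 49.0 FPKM of gpx4a, the lowest of its lineage.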

How the results depend on the processing

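The differences of msrb1b, sepn1 and sepw1 kept their sign in all 22 alternatives, and their calls held in 20, 11 and 9 of them. The count of all genes called (1824) was 1177 (without control library 5) to 1905 without single libraries, 159 with the shared replicate number as a block and 725 without MeHg libraries 6 and 7 and control library 8, an alternative chosen after seeing the data. The number of the 9 genes called higher (1) was 0 to 1 without single libraries and 0 with array weights, the replicate block, without control libraries 5 and 7 and in the added alternative. The number called lower (2) was 1 to 2 without single libraries, 1 with no filter, quantile normalization, no variance trend and without control libraries 5 and 7, and 0 with the replicate block and in the added alternative, where msrb1b had adjusted p of 0.111 and 0.0592. Fewer samples enter the block, since 4 numbers are shared; same-numbered libraries correlated at -0.23 to -0.01 and do not pair.

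Among genes not called, the log2 difference changed sign for gpx1a (-0.15 without control libraries 5 and 7; -0.01 to 0.19 without single libraries), gpx4b (0.08 with quantile normalization, 0.00 with the companion table, 0.02 with the replicate block; -0.18 to 0.21 without single libraries), msrb1a (0.08 with array weights, 0.29 without control libraries 5 and 7; -0.39 to 0.10 without single libraries) and sepp1a (0.04 with quantile normalization, 0.13 with the replicate block, 0.11 in the added alternative; -0.13 to 0.06 without single libraries). The msrb1b to msrb1a difference was -1.47 without control libraries 5 and 7, -0.97 in the companion table (added after seeing the data) and -1.25 to -0.60 without single libraries. The cause of these shifts was not tested. Rescaling moved the median of all genes by at most 0.06. The planned edgeR fit was not run because the companion values are not counts.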
